A study of Rattus norvegicus with 6 samples.

Results

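The B7 genes of the rat renal cortex, the outer layer of the kidney, are described here in animals given the anti-inflammatory drug phenylbutazone and in animals given its vehicle. The set held 7 genes, Vtcn1, Cd274, Pdcd1lg2, Cd80, Cd86, Cd276 and Icoslg. Of these, 6 had a probe and 4 (Vtcn1, Cd274, Cd86 and Cd276) were among the 29938 genes tested in the series. Of the 29938, 12155 had a gene symbol. Each accession without a symbol was counted as a gene of its own, so the same gene may be counted more than once. Array probes were taken as those of the B7 genes when the probe's accession, without version, belonged to one of the 7 symbols in RefSeq. That gave 11 of 61537 non-control probes: 3 for Vtcn1, 2 each for Pdcd1lg2, Cd80 and Cd276, and 1 each for Cd274 and Cd86. No probe was matched to Icoslg, the ligand of ICOS, so that it was not analysed here. The set was built around Vtcn1 because of its large difference between these same arrays, so the differences of all 7 genes are given as a description, with no test.

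B7 proteins are membrane proteins of the immunoglobulin superfamily that antigen-presenting cells, and for some members epithelial cells, show to T cells. CD80 and CD86 bind CD28, which stimulates the T cell, and CTLA4, which restrains it; PD-L1 (Cd274) and PD-L2 (Pdcd1lg2) bind the inhibitory receptor PD-1. B7-H3 (Cd276) and B7-H4 (Vtcn1) are known mainly as inhibitors of T cell responses, and PD-L1 is known to be induced by interferon gamma.

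The arrays came from male Sprague-Dawley (Crl:CD(SD)) rats that were 5 weeks old when bought. The phenylbutazone group (n = 3) received the drug at 200 mg/kg/day for 4 weeks, and the vehicle group (n = 3) received corn oil for 4 weeks. Phenylbutazone blocks the cyclooxygenases, the enzymes that start prostaglandin synthesis. Total RNA of each animal was labelled with Cy3 and hybridised to a one-colour Agilent array of its own. The series' design text calls the samples biological replicates, and 3 arrays per group limit the precision of every value.

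Between 65.2% and 67.4% of probes were well above background on the phenylbutazone arrays and between 65.2% and 68.4% on the vehicle arrays. All 11 markers of the proximal tubule and all 6 of the podocyte, the defining cells of the renal cortex, were measured. Vehicle arrays 1 and 2 shared slide 1, whereas the 3 phenylbutazone arrays and vehicle array 3 shared slide 2, scanned on another day. On principal component 1 of all tested genes, which took 29.4% of the variance, vehicle 3 lay at -52.3, the phenylbutazone arrays at -18.9 to -1.10 and vehicle 1 and 2 at 41.2 and 36.3. Vehicle 3 therefore stood apart from the other vehicle arrays, and where it decides the direction of a B7 gene or of a list's median, the values with and without it are given. In whole tissue, fewer cells of a type and less RNA per cell cannot be told apart.

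Vtcn1, which encodes the inhibitory ligand B7-H4, was well above background in the phenylbutazone rats and in no vehicle rat. Its brightest probe, A_64_P078624, had processed intensities of 109, 93.2 and 128 in phenylbutazone rats 1, 2 and 3, against 5.95, 7.18 and 3.46 in vehicle rats 1, 2 and 3. Every phenylbutazone value lay above every vehicle value. The Feature Extraction software's own errors were 11.9, 10.3 and 13.4 on the phenylbutazone arrays and 5.97, 5.43 and 3.47 on the vehicle arrays. That software replaces small values by about their error, so the values of vehicle 1 and 3 are background readings, not measured levels. Vehicle 2 read 1.32 times its error. On the log2 scale relative to each array's 75th percentile, which is used from here on, the level was -3.11 ± 0.23 in phenylbutazone and -7.50 ± 0.49 in vehicle (SD, n = 3 each).

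Because no vehicle array measured Vtcn1 above background, its fold change has only a lower bound. That bound sets the phenylbutazone mean against the mean, over vehicle arrays, of the lowest signal that counted as well above background on each array, or of the probe's own signal where higher. By its brightest probe, Vtcn1 was at least 5.56-fold higher in phenylbutazone. Against vehicle 3 alone, the vehicle array of the same slide, it was at least 6.91-fold higher. Without vehicle 3 it was at least 4.98-fold higher. After normexp background correction with an offset of 50, which compresses dim signals, the difference was 1.22 log2 units (2.33-fold).

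The other probes of Vtcn1 lay elsewhere on the array, at row 111, column 133 and at row 319, column 35, against row 60, column 126 for the brightest. Probe A_64_P078619 read -4.66, -3.92 and -3.08 in phenylbutazone rats 1, 2 and 3, against -7.34, -7.55 and -8.06 in vehicle rats 1, 2 and 3. It was well above background on 3 phenylbutazone arrays and 0 vehicle arrays, and at least 3.23-fold higher in phenylbutazone. Probe A_44_P323735 read -5.55, -4.34 and -4.29 in phenylbutazone rats 1, 2 and 3, against -7.43, -7.63 and -8.00 in vehicle rats 1, 2 and 3. It was well above background on 2 phenylbutazone arrays, not on that of rat 1, and on 0 vehicle arrays, and was at least 1.81-fold higher. All 3 probes read every phenylbutazone rat above every vehicle rat, and on all 3 the vehicle spots were not well above background.

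The probes did not rank the treated rats alike. Phenylbutazone rat 3 was the highest on all 3 probes, whereas rat 1 was second on the brightest probe and lowest on both others. The spread among phenylbutazone rats was 0.23 log2 units (SD) on the brightest probe, 0.79 on A_64_P078619 and 0.71 on A_44_P323735.

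**Figure D1:**
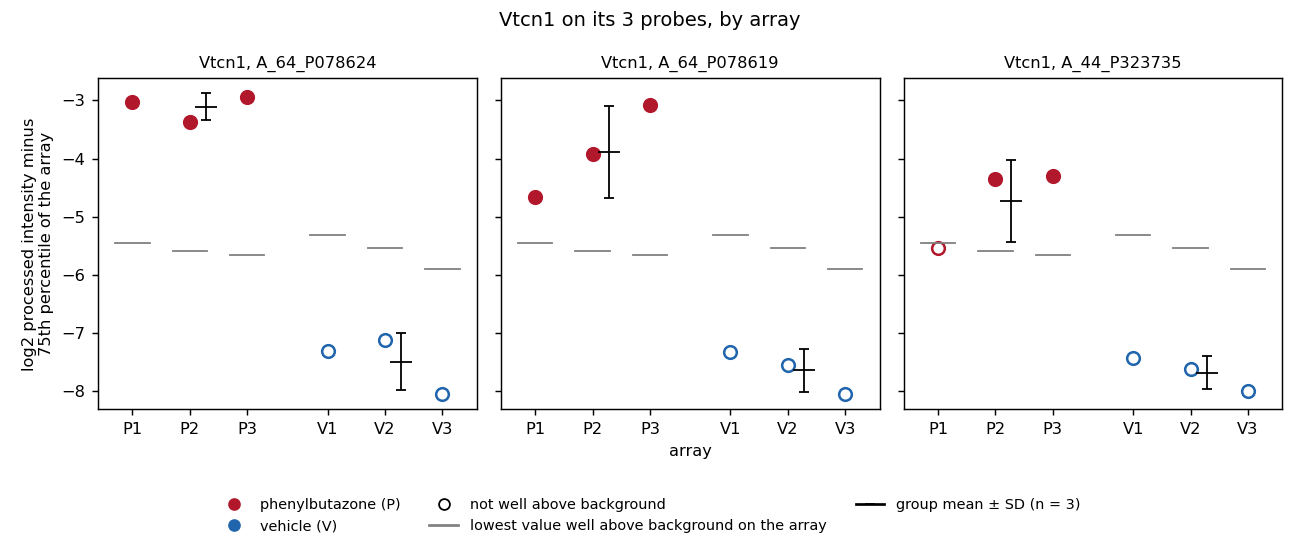
Level of Vtcn1 on its 3 probes (y axis, log2 processed intensity minus the 75th percentile of the array) on each array (x axis), with filled points well above background, grey ticks at the dimmest signal of that array that counted as well above background, and black bars at the group mean ± SD. The phenylbutazone points lie above the vehicle points on each probe and no vehicle point is filled, so that the differences have lower bounds of 2.47, 1.69 and 0.85 log2 units.

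The promoter window of Vtcn1 in RefSeq is shown because it precedes the gene with the difference above; no measurement of binding or chromatin bears on it. It covers 250 bases before and 50 bases from the gene's start, on the plus strand of chr2:190941974-190942273 in the assembly GRCr8, and is read 5′ to 3′. Capitals mark the match to the AP-1 motif.
Vtcn1 promoter: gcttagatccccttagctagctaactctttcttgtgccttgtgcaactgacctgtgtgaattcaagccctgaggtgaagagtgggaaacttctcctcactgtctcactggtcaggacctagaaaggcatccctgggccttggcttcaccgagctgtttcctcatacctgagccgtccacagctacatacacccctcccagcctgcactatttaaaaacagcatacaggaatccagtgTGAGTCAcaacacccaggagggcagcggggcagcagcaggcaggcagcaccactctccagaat

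Matches were sought on both strands for AP-1 (TGANTCA), the interferon gamma activated site (TTCNNNGAA), the interferon-stimulated response element (GAAA, any 2 bases, GAAA), NF-kB (GGG, any 5 bases, CC), the antioxidant response element (TGACNNNGC) and the TATA box (TATAAA). The Vtcn1 window held 1 match, TGAGTCA at 13 to 7 bases before the start, and none of the others. Among all 33469 promoter windows of that length, 7.33% held an AP-1 match. The windows of the other B7 genes held no AP-1 match. NF-kB matches stood in those of Cd80, Cd86, Cd276 and Icoslg, a motif found in 47.3% of all windows, and the 2 interferon motifs stood in those of Cd80 only, at 8.87% for the activated site and 3.92% for the response element over all windows. These are letter matches and say nothing of whether a factor binds.

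Cd274 encodes PD-L1 and was measured close to background. It read -5.03, -5.72 and -5.41 in phenylbutazone rats 1, 2 and 3, against -5.89, -5.72 and -4.46 in vehicle rats 1, 2 and 3. The probe was well above background on 2 phenylbutazone arrays (rats 1 and 3) and on 1 vehicle array (rat 3), and the groups overlapped. The means were -5.38 ± 0.35 in phenylbutazone and -5.36 ± 0.78 in vehicle, a difference of -0.027. Vehicle 3 alone decided that value: the difference was -0.92 against vehicle 3 and 0.42 against vehicle 1 and 2. No direction can be given for Cd274.

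Pdcd1lg2, which encodes PD-L2, was not well above background on any array with either probe, and its probes read between -7.90 and -7.51 in phenylbutazone and between -8.07 and -7.28 in vehicle. Cd80, which encodes B7-1, was likewise not well above background on any array with either probe. The values of Cd80 ran from -7.77 to -6.84 in phenylbutazone and from -8.00 to -5.99 in vehicle. The highest, -5.99 in vehicle 3, fell just short of -5.90, the lowest value that was well above background there. No fold is given for either gene, since a difference between dim spots cannot be measured; the 4 probes were among the 26.0% of all probes in that state on all 6 arrays.

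Cd86, which encodes B7-2, was well above background on all 6 arrays. It read -4.14, -4.00 and -3.96 in phenylbutazone rats 1, 2 and 3, against -3.95, -4.06 and -4.86 in vehicle rats 1, 2 and 3. The phenylbutazone values and those of vehicle 1 and 2 lay together, and vehicle 3 lay below them all. The difference was 0.26, from means of -4.04 ± 0.097 in phenylbutazone and -4.29 ± 0.50 in vehicle. It was 0.83 against vehicle 3 and -0.030 without vehicle 3.

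Cd276, which encodes B7-H3, was well above background on all 6 arrays with both probes. The brighter probe, A_64_P028374, read 0.56, 0.54 and 0.58 in phenylbutazone rats 1, 2 and 3, against 0.83, 0.62 and -0.31 in vehicle rats 1, 2 and 3. The phenylbutazone rats differed from each other by an SD of only 0.016, and lay below vehicle 1 and 2 and above vehicle 3. The difference was 0.18 with all arrays, 0.87 against vehicle 3 and -0.16 without it.

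The second Cd276 probe, A_42_P473467, did not show the low value of vehicle 3. It read -4.09, -4.08 and -3.85 in phenylbutazone rats 1, 2 and 3, against -3.88, -3.89 and -3.71 in vehicle rats 1, 2 and 3, so that vehicle 3 was the highest array. Its difference was -0.18, opposite in sign to that of the brighter probe, and the groups overlapped on both. Without vehicle 3 it was -0.12, the same sign as the -0.16 of the brighter probe, and against vehicle 3 alone it was -0.30. Vehicle 3 differed from the mean of vehicle 1 and 2 by -1.03 on the brighter probe and by 0.18 on this one.

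**Figure D2:**
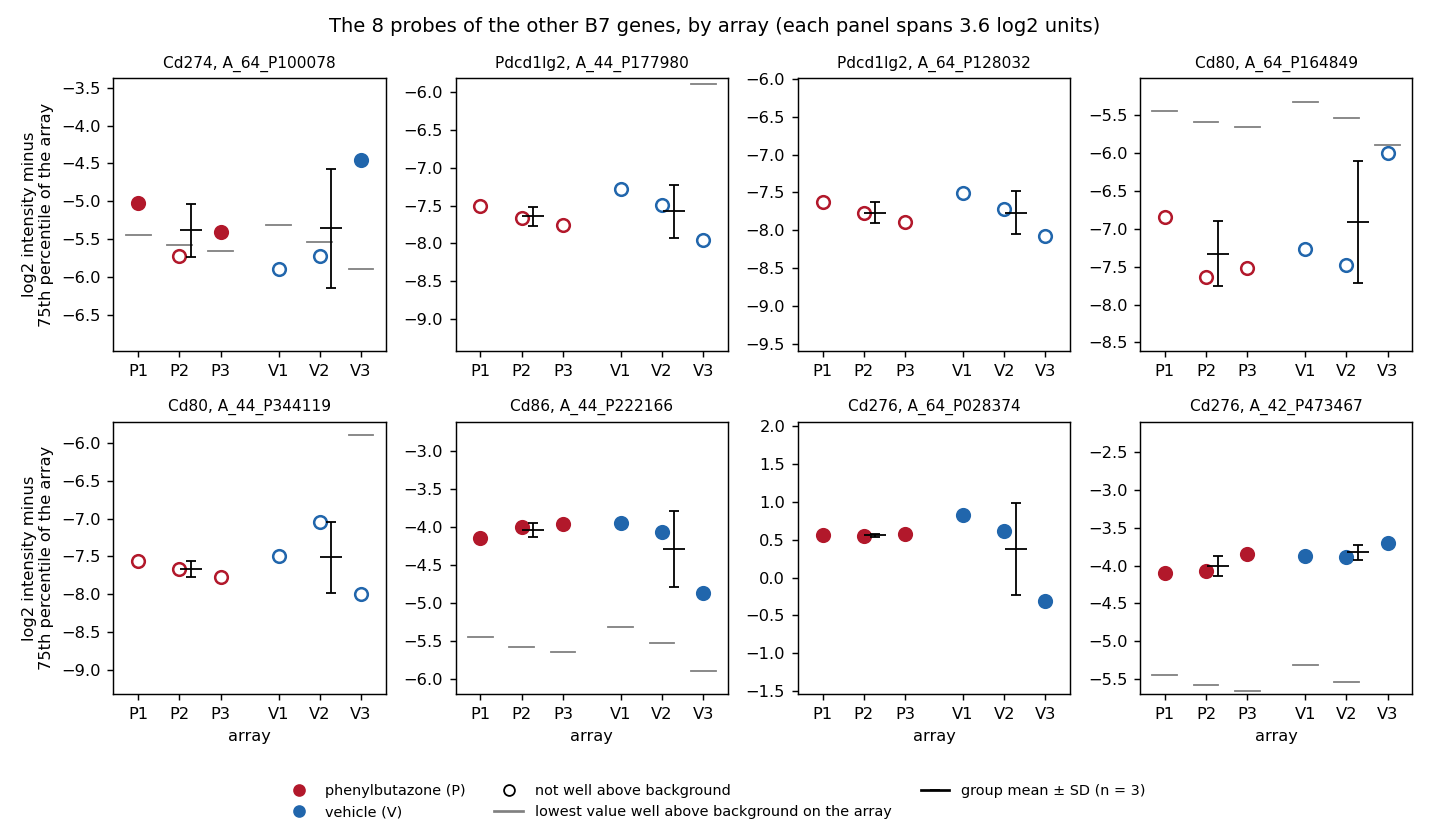
Levels of the 8 probes of Cd274, Pdcd1lg2, Cd80, Cd86 and Cd276 (y axis, log2 intensity minus the 75th percentile of the array, 3.6 log2 units per panel) on each array (x axis), with symbols as for Vtcn1 and ticks outside a panel not drawn. The groups overlap on all 8 probes, the 4 probes of Pdcd1lg2 and Cd80 are open on every array, and vehicle 3 is the farthest array from the others for Cd274, Cd86 and the brighter Cd276 probe.

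Of the 7 genes, 4 passed the filter of at least 3 arrays well above background, which Vtcn1 did through its phenylbutazone arrays alone. Among those 4, the groups did not overlap for 1, Vtcn1, on the higher side. Over all 29938 genes the groups did not overlap for 12.1% with phenylbutazone higher and for 9.39% with phenylbutazone lower. Since Vtcn1 was picked from this comparison, nothing is read from its count.

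Few probes were well above background on all arrays of 1 group and on 0 arrays of the other. Of 61497 probes, 33 (0.0537%) were so on 3 phenylbutazone arrays and 0 vehicle arrays, and 85 (0.138%) on 0 phenylbutazone arrays and 3 vehicle arrays. Such a pattern need not be a large change: 11 of the 33 had a bound of at least 2-fold, and the lowest bound was 1.18-fold. Among the 33, the brightest Vtcn1 probe ranked 3rd by its bound and A_64_P078619 ranked 5th. The bounds ahead of Vtcn1 were at least 13.3-fold and 8.45-fold, on probes with no gene symbol here. Only 15 of the 33 probes had a gene symbol, in 14 genes. Vtcn1 was the only one of those 14 with more than 1 probe among the 33. How many probes the other genes had on the array was not compared. Since Vtcn1 was picked from these arrays, nothing is read from its ranks or its probe count.

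Genes named in that group of 33 were chosen after their values were seen. Next to Vtcn1 stood Or9k2, an olfactory receptor gene, at least 3.81-fold higher, and Klhl31, at least 2.61-fold higher. Cxcl2, which encodes a neutrophil chemokine, was at least 1.28-fold higher.

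**Figure D3:**
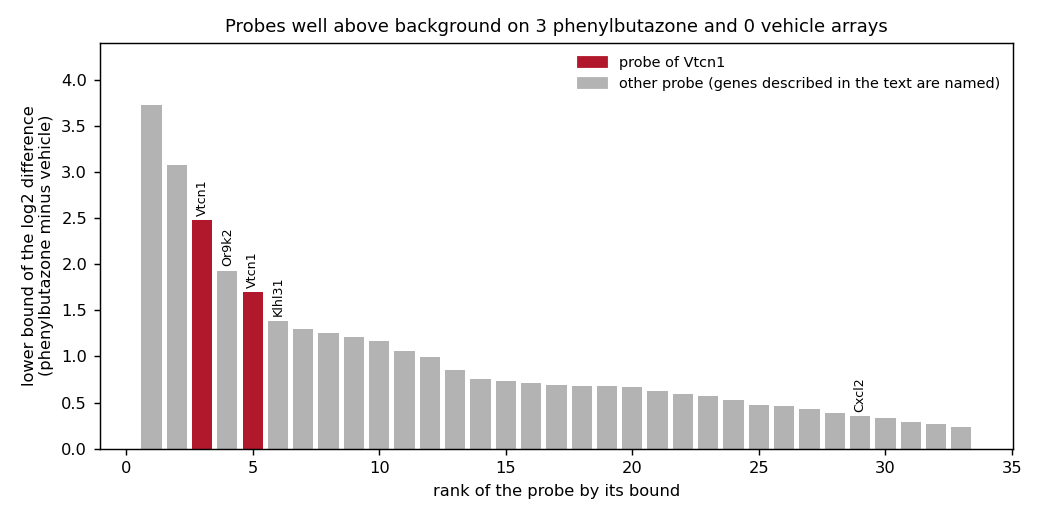
Lower bound of the log2 difference (y axis, phenylbutazone minus vehicle) for the 33 probes well above background on 3 phenylbutazone and 0 vehicle arrays, ranked (x axis), with Vtcn1 in red. The Vtcn1 probes stand 3rd and 5th, at 2.47 and 1.69 log2 units.

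The partners of the B7 proteins were then examined with the limma fit over all 29938 genes, in which 0 genes (0.00%) had a Benjamini-Hochberg adjusted p under 0.05, 3657 having an unadjusted p under 0.05. An intensity trend gave 8 genes. Leaving out vehicle 3, after which treatment and slide cannot be told apart, gave 814. Of 27 receptors and other costimulatory genes, 23 had a matched probe and 16 were tested. None of the 16 passed in either direction, 3 had an unadjusted p under 0.05, and their median difference was -0.060 against 0.015 for all genes.

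CD28 and PD-1, the main receptors of the family, were hardly measured: Cd28 was well above background on 1 phenylbutazone and 0 vehicle arrays and Pdcd1 on 1 phenylbutazone and 1 vehicle array, and neither was tested. Ctla4, which encodes the inhibitory receptor of CD80 and CD86, read -4.98, -4.85 and -4.92 in phenylbutazone rats 1, 2 and 3, against -4.51, -4.34 and -4.69 in vehicle rats 1, 2 and 3. The groups did not overlap, and the difference of -0.40 ± 0.12 (SE) did not pass (limma adjusted p = 0.316). Lag3, an inhibitory receptor that binds MHC class II, read -4.62, -4.84 and -5.04 in phenylbutazone rats 1, 2 and 3, against -5.41, -6.00 and -5.29 in vehicle rats 1, 2 and 3. Its groups lay apart too, in the other direction, at 0.73 ± 0.22 (SE, limma adjusted p = 0.316), but it was well above background on only 1 vehicle array.

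Btla and its partner Tnfrsf14, a receptor pair that restrains lymphocytes, also had groups that did not overlap. Btla stood at -0.27 ± 0.11 (SE, limma adjusted p = 0.406) and Tnfrsf14 at -0.059 ± 0.085 (SE, limma adjusted p = 0.805), and the second Tnfrsf14 probe at 0.050. For Icos, the receptor of the ligand not analysed here, the groups overlapped at -0.26 ± 0.32 (SE, limma adjusted p = 0.773). Among the 16 genes 1 lay apart on the higher side (6.25%) and 3 on the lower side (18.8%), beside the 12.1% and 9.39% over all genes.

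Among 14 other genes of the B7 and butyrophilin family, 7 had a matched probe and 4 were tested, with 0 passing, 0 at an unadjusted p under 0.05 and a median difference of 0.15 (0.0028 against vehicle 3 and 0.043 against vehicle 1 and 2). Vsir, which encodes the checkpoint protein VISTA, stood at 0.19 ± 0.22 (SE, limma adjusted p = 0.756), and its other probes at 0.05 and 0.01. Its difference was 0.62 against vehicle 3, which alone among the vehicle arrays lay below all phenylbutazone arrays. Vsig4, Btn1a1 and Btnl2 were not well above background on any array.

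Interferon gamma signalling and its targets, 21 genes with 20 on the array and 18 tested, had a median difference of 0.19, and 0 passed, with 2 at an unadjusted p under 0.05. Ifng itself and Ido1, a tryptophan-degrading target, were not well above background on any array. The immunoproteasome subunit genes Psmb8 (0.27 ± 0.094, SE, limma adjusted p = 0.361) and Psmb9 (0.23 ± 0.10, SE, limma adjusted p = 0.431) were those whose groups did not overlap, both higher, 2 of 18 genes (11.1%) beside the 12.1% of all genes. Larger differences, with overlapping groups, were those of the chemokine genes Cxcl10 (0.89 ± 0.31, SE, limma adjusted p = 0.360) and Cxcl11 (0.71 ± 0.30, SE, limma adjusted p = 0.424). The summed level of the interferon list, in units of each array's 75th percentile, did not overlap between the groups, at 33.8 to 35.7 in phenylbutazone and 28.4 to 31.3 in vehicle. Its part in the Vtcn1 result was not tested. The median of the list was 0.37 against vehicle 3 and 0.14 against vehicle 1 and 2.

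Of 9 genes that control the turnover of PD-L1, all 9 were tested and 0 passed, with 0 at an unadjusted p under 0.05 and a median of 0.055 (-0.14 against vehicle 3 and 0.087 against vehicle 1 and 2). Cmtm6, which protects PD-L1 from degradation, stood at -0.15 ± 0.16 (SE, limma adjusted p = 0.732). The ubiquitin ligase gene Cop1 (0.15 ± 0.085, SE, limma adjusted p = 0.515) and the kinase gene Gsk3b (0.12 ± 0.10, SE, limma adjusted p = 0.669) had groups that did not overlap, 2 of 9 (22.2%) beside the 12.1% of all genes. The list's score, the mean deviation of its genes from their own means over the 6 arrays, overlapped between the groups, at -0.019 to 0.060 in phenylbutazone and -0.12 to 0.13 in vehicle. The summed level, which follows the bright probes where the score weights genes equally, did not overlap (60.4 to 62.7 in phenylbutazone, 55.8 to 58.8 in vehicle).

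**Figure D4:**
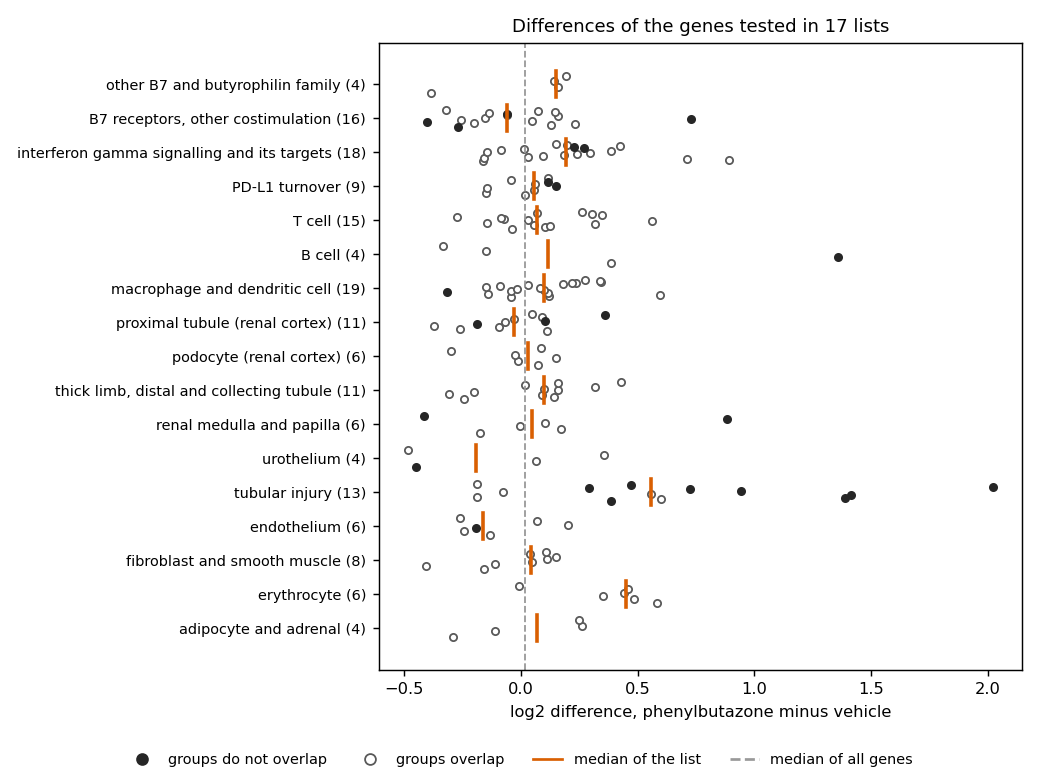
Log2 difference, phenylbutazone minus vehicle (x axis), of each tested gene in 17 lists (y axis, with the number tested), where filled points have groups that do not overlap, orange bars mark the list's median and the dashed line the median of all genes, 0.015. None of the 160 tested genes passed the limma test, and the tubular injury list has the highest median of the 17, 0.56.

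Markers of the cells that carry B7 proteins or their receptors gave no call. Of 16 T cell markers 15 were tested, 0 passed and 0 lay apart, beside 12.1% (higher) and 9.39% (lower) of all genes, with a median of 0.069 (-0.079 against vehicle 3 and 0.21 against vehicle 1 and 2). Of 23 macrophage and dendritic cell markers 19 were tested, 0 passed, with 1 at an unadjusted p under 0.05, and the median was 0.099 (0.19 against vehicle 3 and 0.029 against vehicle 1 and 2). The complement gene C1qc was the only one of these with groups that did not overlap (-0.32 ± 0.11, SE, limma adjusted p = 0.349), 1 of 19 (5.26%) beside the 9.39% of all genes. Of 8 B cell markers 4 were tested and 0 passed, with 1 at an unadjusted p under 0.05 and a median of 0.12 (0.53 against vehicle 3 and -0.011 against vehicle 1 and 2). That was Cd22, a B cell inhibitory lectin, at 1.36 ± 0.30 (SE, limma adjusted p = 0.266), well above background on 3 phenylbutazone arrays and 1 vehicle array.

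The summed levels of these markers overlapped between the groups. In units of each array's 75th percentile, the T cell sum lay between 3.69 and 4.91 in phenylbutazone and between 3.39 and 4.26 in vehicle. The macrophage and dendritic cell sum lay between 49.3 and 59.5 in phenylbutazone and between 45.8 and 56.1 in vehicle, and the B cell sum between 1.53 and 1.74 in phenylbutazone and between 1.42 and 2.27 in vehicle.

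Tubular injury markers gave no call, but their summed level did not overlap between the groups. Of 14, 13 were tested and 0 passed, 8 had an unadjusted p under 0.05, and 8 (61.5%) lay fully apart, all higher, beside the 12.1% of all genes. Their summed level was between 98.4 and 139.9 in phenylbutazone and between 55.2 and 57.3 in vehicle. The median difference of the injury markers was 0.88 against vehicle 3 and 0.45 against vehicle 1 and 2. Spp1, which encodes osteopontin, stood at 2.02 ± 0.36 (SE, limma adjusted p = 0.208), Krt18, an epithelial keratin gene, at 1.41 ± 0.41 (SE, limma adjusted p = 0.307) and Clu, which encodes clusterin, at 1.39 ± 0.35 (SE, limma adjusted p = 0.285). Other genes of the list were below vehicle with overlapping groups: the kidney injury molecule gene Havcr1 at -0.19, the adhesion molecule gene Vcam1 at -0.19 and Krt8, the keratin that pairs with that of Krt18, at -0.077 (limma adjusted p = 0.894, 0.722 and 0.895). Against vehicle 3 alone, Havcr1 stood at 0.23, Vcam1 at 0.22 and Krt8 at -0.37. The list's score was 0.058, 0.26 and 0.64 in phenylbutazone rats 1, 2 and 3. The part of tubular injury in the Vtcn1 result was not tested.

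**Figure D5:**
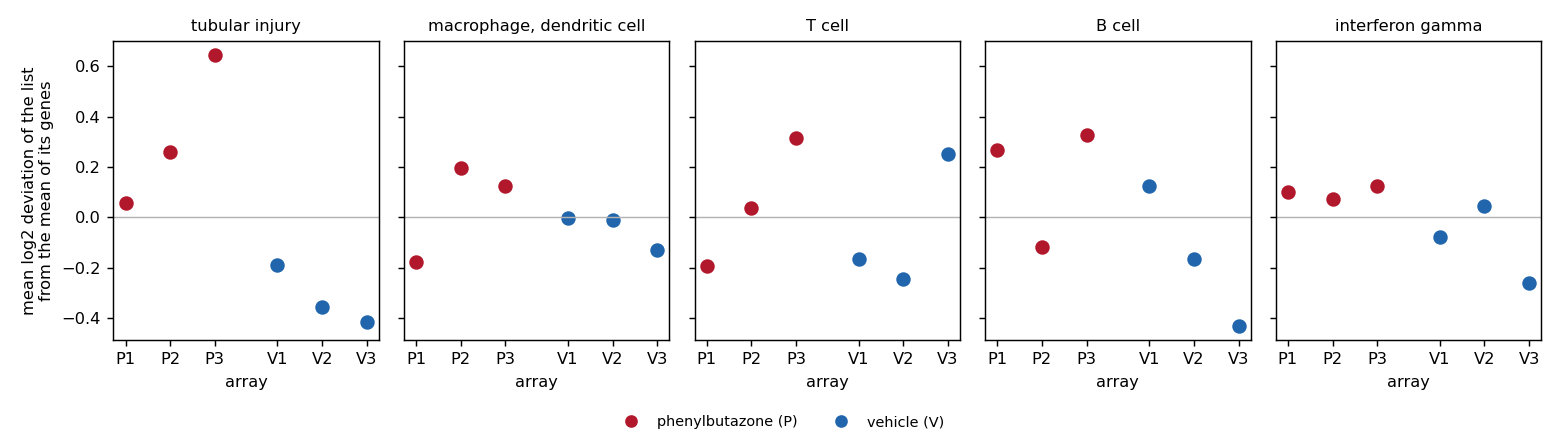
Score of 5 lists (y axis, mean log2 deviation of the tested genes from their own means over 6 arrays) on each array (x axis). For tubular injury the 3 phenylbutazone arrays, at 0.058 to 0.64, all lie above the vehicle arrays, at -0.41 to -0.19. For interferon gamma they also lie above, at 0.072 to 0.12 against -0.26 to 0.044. For macrophages and dendritic cells, T cells and B cells the groups overlap.

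Markers of other tissue that a cortex sample can carry along gave no call with all arrays. Of 9 urothelium markers 4 were tested, with 0 passing and 1 at an unadjusted p under 0.05. Their median was -0.19, but 0.48 against vehicle 3 and -0.42 against vehicle 1 and 2, so no direction is given. Upk2 and Krt20 were not well above background on any array, and the summed level lay between 0.29 and 0.45 in phenylbutazone and between 0.24 and 0.52 in vehicle. The basal keratin gene Krt5 stood at -0.45 ± 0.13 (SE, limma adjusted p = 0.303) and passed without vehicle 3 (-0.56, limma adjusted p = 0.0493), where treatment and slide cannot be told apart. The 6 tested medulla and papilla markers had a median of 0.049 (0.34 against vehicle 3 and -0.15 against vehicle 1 and 2). Their score overlapped between the groups, at 0.061, -0.0082 and 0.086 in phenylbutazone rats 1, 2 and 3, against 0.097, 0.15 and -0.39 in vehicle rats 1, 2 and 3. Their summed level, 7.16, 9.06 and 10.69 in phenylbutazone rats 1, 2 and 3, against 6.87, 6.83 and 4.402 in vehicle rats 1, 2 and 3, did not overlap. Slc5a3, the osmotically regulated inositol transporter gene, stood at 0.88 ± 0.33 (SE, limma adjusted p = 0.378) and Slc6a12, a betaine transporter gene, at -0.42 ± 0.16 (SE, limma adjusted p = 0.381), both with groups that did not overlap. That was 1 of 6 higher (16.7%) and 1 of 6 lower (16.7%), beside the 12.1% and 9.39% of all genes. Against vehicle 3 alone, Slc5a3 stood at 1.44 and Slc6a12 at -0.16. The other probes of Slc5a3 stood at 0.83 and 0.88, and that of Slc6a12 at -0.15. Of the 6, 0 passed, with 2 at an unadjusted p under 0.05. Slc5a3 was the brightest of the 6, at means of 2.68 in phenylbutazone and 1.79 in vehicle. Akr1b1, the next, stood at 0.043 and 0.22. The summed level follows bright probes, so it says little of the markers other than Slc5a3. The 6 tested erythrocyte markers had a median of 0.45 and summed levels between 421 and 661 in phenylbutazone and between 361 and 499 in vehicle. Their part in the Vtcn1 result was not tested.

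The other lists had medians of -0.029 for the proximal tubule, 0.029 for podocytes, 0.10 for the thick limb, distal and collecting tubule, -0.16 for endothelium, 0.043 for fibroblasts and smooth muscle and 0.069 for adipocytes and adrenal cells. Apart from endothelium, each of these medians changed sign with the vehicle arrays used. Against vehicle 3 they were -0.12, 0.12, 0.072, 0.084 and 0.45 for proximal tubule, podocytes, distal tubule, fibroblasts and adipocytes. Against vehicle 1 and 2 they were 0.041, -0.026, -0.084, -0.034 and -0.27 in the same order. Of all 160 genes tested in the 17 lists, 0 passed (limma), 19 had an unadjusted p under 0.05, and the lowest adjusted p was 0.208. Groups did not overlap for 17 genes with phenylbutazone higher (10.6%) and for 8 with phenylbutazone lower (5%), beside the 12.1% and 9.39% over all genes.

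Likeness to the brightest Vtcn1 probe was measured as Pearson's r over the 6 arrays, which share the slides described above, and is given as a description. Since the 2 groups lay far apart for Vtcn1, a high r came with groups that lay apart, and the vehicle values of Vtcn1 are background readings, so the order among genes of high r is not resolved. Of 29938 genes, 324 had an r of at least 0.95 and 225 an r of at most -0.95. The 6 named genes with the highest r were Insrr, which encodes an alkali-sensing receptor (0.998), the transcription factor gene Sp4 (0.996), the ribosomal protein gene Rpl7 (0.995), the protein repair methyltransferase gene Pcmt1 (0.995), the splicing factor gene Slu7 (0.995) and the endosomal sorting gene Vps25 (0.995). Their own differences ranged from 0.18 for Pcmt1 to 0.85 for Insrr, and none passed (limma adjusted p = 0.164 for Insrr, the lowest). Rpl7 has near-identical copies in the genome and is uncertain.

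The 4 named genes that ran most opposite to Vtcn1 were Acsbg1, an acyl-CoA synthetase gene (-0.998), the transcription factor gene Nhlh1 (-0.994), Calca, which encodes calcitonin (-0.992), and Cish, an inhibitor of STAT5 signalling (-0.992). Genes without a symbol were not ranked. Acsbg1 read 1.28, 1.38 and 1.19 in phenylbutazone rats 1, 2 and 3, against 2.84, 2.85 and 3.04 in vehicle rats 1, 2 and 3. All 3 phenylbutazone rats were below every vehicle rat, a difference of -1.63 ± 0.11 (SE, limma adjusted p = 0.0648) that did not pass. Cish stood at -1.86 ± 0.18 (SE, limma adjusted p = 0.115), and Calca and Nhlh1 at -0.42 and -0.35.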

How the data were processed

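Renal cortex RNA of 6 rats was measured on one-colour Agilent arrays. Per the file headers and the submitters' processing notes, Agilent Feature Extraction 10.7 was used on the images. In the deposited scanner files the processed signal of a spot is a linear intensity, already background-subtracted by that software and, as the values show, not scaled between arrays; small values are replaced there by about their error. The authors' deposited value table holds a ratio that equals the processed intensity over the array's 75th percentile to within 0.326% (99th percentile of the deviations on the widest array, for values of at least 0.1), so its scale and direction are known; its column medians were 0.105, 0.106 and 0.107 for phenylbutazone and 0.110, 0.110 and 0.109 for vehicle.

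Of 62976 spots, 1439 controls and 40 probes with an outlier flag were dropped, and 0 spots were saturated. The log2 of each intensity was set relative to the 75th percentile of its array. Of 61497 probes, the 41006 well above background on at least 3 arrays were kept, and a gene was its brightest kept probe. Probes without a symbol were grouped by accession, so that 12155 of the 29938 genes tested carried a symbol. Accessions were named through RefSeq symbols of GRCr8 (45.8% of probes); the layout names the build rn4 and its coordinates were not used. Genes were tested two-sided in R 4.3.3 with limma 3.58.1 (lmFit, eBayes), Benjamini-Hochberg adjusted over 29938 genes, threshold 0.05. The fit was tested on simulated data.

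The members, gene lists (206 genes, 17 lists) and tests were chosen with earlier results of these data known. Named were all members. From each list, the genes past the threshold were named, or else up to 4 tested genes with groups apart and the largest differences. Also named were the 6 and 4 genes of highest and lowest r with Vtcn1. For r, only genes outside the set with a symbol were ranked, and provisional symbols (LOC, RGD and Rik) were left out. Other genes were chosen after their values were seen. A few genes are not reported here. Alternatives were another scaling, background correction, normalization, filter, probe rule and variance model, the deposited ratios, slide and replicate number as blocks, slide 2 alone, and leaving out each array. For normexp the median spot intensity was used.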

Additional observations from a re-analysis of the deposited data

How the results depend on the processing

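The phenylbutazone level of Vtcn1 stayed above vehicle in each of the 17 alternatives that gave a value. The difference was 1.22 log2 units with normexp background correction and 4.95 with slide as a fixed block and on slide 2 alone. It was 4.08 to 4.75 under the others that kept all arrays, and 4.11 to 4.58 when each array was left out in turn. The 4.08, with every probe on its own, is the median of the 2 Vtcn1 probes that passed the filter. Their bounds were 5.56-fold and 3.23-fold, and that of the third probe, which did not pass, was 1.81-fold. In the other settings the bound ran from 4.98-fold without vehicle 3 to 6.91-fold on slide 2, normexp giving a fitted 2.33-fold and no bound. With the filter set at all 6 arrays Vtcn1 has no value, since no vehicle array measured it. The count of genes past the threshold, 0, became 2 with normexp, 1 with quantile normalization, 8 with an intensity trend and 1 with slide as a random block. It was 0 to 814 when single arrays were left out, and 814 (237 higher, 577 lower) without vehicle 3. In that setting treatment and slide cannot be told apart, so the 814 cannot be read as treatment genes. In the lists the count was 0 to 1, Krt5 without vehicle 3. Slide as a fixed block and slide 2 alone, both of which rest on vehicle 3, moved Cd274 to -0.92, Cd86 to 0.83 and Cd276 to 0.87; the signs of all 3 differ without vehicle 3 (0.42, -0.030 and -0.16). The cause was not tested.

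The labels number the rats 1 to 3 in both groups. The deviations of same-numbered rats had r of -0.030, 0.011 and -0.074 over genes, within the -0.099 to 0.10 of differently numbered rats. Vehicle 3 lay on another slide than vehicle 1 and 2, so these values cannot decide whether the numbers pair the samples. With the replicate block the count stayed 0 over all genes and 0 in the lists, and the difference of Vtcn1 was 4.39, as without it. Signals near background set the limit for Cd274, Cd80 and Pdcd1lg2.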
